A study of Mus musculus with 5 samples.

Results

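The S100 proteins are small calcium-binding proteins that fold around EF-hand loops and mostly work as dimers. S100A8 and S100A9 pair to form calprotectin, which fills the cytosol of neutrophils and is also made by monocytes, sequesters zinc and manganese, and signals through TLR4 once released. Other members act inside many cell types, where they bind annexins, myosin and other targets. RNA of the S100 genes was read here in cells of mouse bone marrow that have FLT3, a growth factor receptor of early blood progenitors, and CD11b, a myeloid integrin chain, on their surface. Their labels name them dendritic cell progenitors (FLT3+/CD11b+ Dendritic cell (DC) progenitor). The 9 genes S100a1, S100a3, S100a4, S100a6, S100a8, S100a9, S100a10, S100a11 and S100a13 were taken by gene symbol from the array's annotation. Of these, 8 genes had 15 probe sets of their own among the 12422 non-control probe sets of the array. S100a11 had 0 of its own and 1 that it shares with a pseudogene and predicted genes, so no value is given for it.

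The 5 samples, numbered 1 to 5, form 1 group with 1 array each. The labels give no strain, age, treatment, animal or culture, so the spread between samples may be biological or technical, and no comparison of conditions was possible. Signals are array intensities multiplied by 1 factor per array, so that every array has a median of 103.4. For log2 values a floor of 30.0 was set, the 25th percentile of the scaled data, while the signals quoted have no floor. Probe sets bind their targets unequally, so signals of different genes, summed signals of lists and positions within an array give no order of RNA abundance between genes; the values are read between samples for 1 probe set or list. Both sort genes, Flt3 and Itgam, were above the array median by limma's test described below. Of all 8251 named genes, 45.4% were above the array median and 28.7% below it. The neutrophil markers were above it for 12 of 12 measured genes, with a summed signal of 74072 to 197301 over the samples. Markers of dendritic cells were above it for 3 of 10 genes (summed signal 1241 to 2346), of monocytes and macrophages for 7 of 9 (9969 to 20147), of B cells for 1 of 5 (693 to 1152), of T and NK cells for 0 of 5 (99.5 to 326), of erythroid cells for 0 of 4 (184 to 509) and of stroma and endothelium for 2 of 7 (857 to 1329). The dendritic cell list includes the sort gene Flt3, which is 1 of its 3 genes above the median and had 318 to 1268 of the summed signal. The monocyte and macrophage list includes Lyz2, which had 5731 to 16251 of its summed signal. Lyz2 is also in the list of neutrophil granule genes described below. Except for 1 dendritic cell and 1 T and NK cell marker, each marker exceeded 30.0 in some sample.

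In the mouse genome 12 S100 genes lie in an unbroken row on chromosome 3, from S100a1 to S100a9, with no other protein-coding gene between them in the RefSeq annotation (GRCm38.p6). This row holds 7 of the 9 genes described here. S100a11 and S100a10 are neighbours of each other farther along chromosome 3, with 56 protein-coding genes between S100a9 and S100a11. S100a8 and S100a9 are next to each other in the row, and S100a1 and S100a13 are its first members. S100a1 and S100a13 are read from opposite strands, with 104 bases between their annotated starts.

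The stretches before the starts of S100a8 and S100a9 are shown because the ratio of these genes varied least of all S100 pairs over samples 2 to 5, and that of S100a6 is shown for contrast as a member that varied little. Each is 250 bases from the RefSeq promoter table (build GRCm38.p6), printed 5′ to 3′ in the direction of the gene. Capitals mark GCAAT, a core of C/EBP sites, GAGGAA, a core of PU.1 sites, and TATAAA, the TATA box, on either strand (ATTGC and TTCCTC are the reverse strands of the first and second). In S100a8 the second TTCCTC and TATAAA stand directly beside each other.
S100a8, chr3:90668821-90669070, plus strand: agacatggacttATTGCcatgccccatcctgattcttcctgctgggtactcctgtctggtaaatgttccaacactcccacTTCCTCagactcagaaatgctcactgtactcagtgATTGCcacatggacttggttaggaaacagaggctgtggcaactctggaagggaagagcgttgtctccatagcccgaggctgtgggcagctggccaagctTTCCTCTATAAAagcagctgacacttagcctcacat
S100a9, chr3:90695722-90695971, minus strand: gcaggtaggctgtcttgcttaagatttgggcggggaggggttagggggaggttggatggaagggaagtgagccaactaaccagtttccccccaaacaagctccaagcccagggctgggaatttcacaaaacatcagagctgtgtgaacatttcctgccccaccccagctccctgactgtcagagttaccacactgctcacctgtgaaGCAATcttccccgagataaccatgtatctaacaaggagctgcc
S100a6, chr3:90612644-90612893, plus strand: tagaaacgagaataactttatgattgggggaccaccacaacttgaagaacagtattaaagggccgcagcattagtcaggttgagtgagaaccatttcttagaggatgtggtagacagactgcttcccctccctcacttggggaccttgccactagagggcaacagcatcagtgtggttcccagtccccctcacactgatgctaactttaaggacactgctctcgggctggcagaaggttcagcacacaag

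Motifs were searched in 300 bases, the 250 before and 50 after each start, on both strands. GCAAT was found in 2 places in S100a8 and 1 in S100a9, and 26.4% of all 32851 windows in the table held it. GAGGAA was found in 2 places in S100a8 and in none in S100a9 (28.3% of windows). TATAAA ended 25 bases before the start of S100a8 and began at the first base after the annotated start of S100a9 (13.6% of windows). The longer C/EBP pattern TTNNGNAA, which is not in capitals, was found in 1 place in S100a8 and 2 in S100a9 (40.7% of windows), and the AP-1 pattern TGANTCA in neither (7.81% of windows). The windows of S100a6, S100a1 and S100a13 held none of these motifs. S100a3, which was not above the array median, has 4 windows, 3 of which held matches: TTNNGNAA in 2 windows, GCAAT in 2, and TATAAA with 2 places of GAGGAA in 1. The S100a4 window had TATAAA ending 26 bases before its start and GAGGAA after the start. These matches are letters in a window and were not measured as binding sites.

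Calprotectin RNA had strong signal in every sample. With arrays scaled to a common median, 1 sample stood below the rest. Signals of S100a8 were 9540.2, 68953, 41773, 82007 and 47618 in samples 1 to 5. Sample 1 was lowest and sample 4 highest. Signals of S100a9 were 12172, 45648, 30466.5, 57705 and 33494 in the same order. With arrays scaled to a common median, the order of the samples was thus the same for both chains: 1 lowest, then 3, 5, 2 and 4. The highest sample was 8.60 times the lowest for S100a8 and 4.74 times for S100a9, and without sample 1 it was 1.96 and 1.89 times. These ranges depended on the scaling. As deposited, S100a8 ran from 31062.9 in sample 3 to 52734.5 in sample 4, with 36121.6 in sample 1. The deposited values of S100a9 were highest in sample 1, at 46087.7. The log2 level above the array median was 8.61 for S100a8 (standard error 0.494, limma adjusted p = 5.54e-05) and 8.27 for S100a9 (standard error 0.347, limma adjusted p = 1.73e-05).

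**Figure D1:**
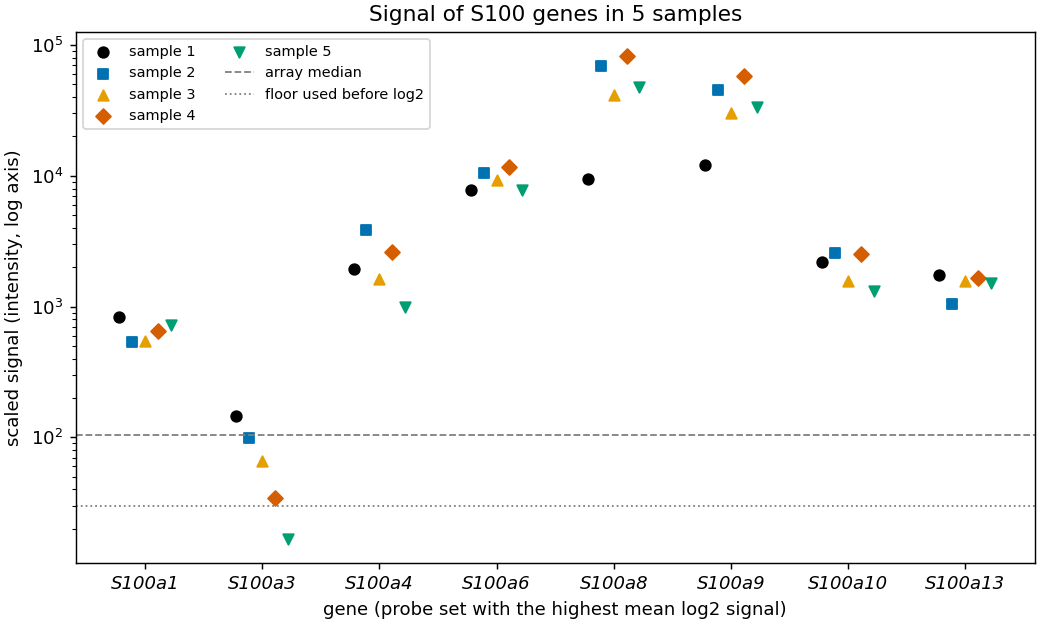
Scaled signal (log axis) of 8 S100 genes in 5 samples, each point 1 sample, with the array median (dashed) and the floor used before log2 (dotted). S100a8 at 9540.2 and S100a9 at 12172 in sample 1 lie below the other samples, while S100a3 lies around or below the array median. After quantile normalization S100a9 was at -0.06 log2 units from its mean in sample 1. In the deposited values sample 1 was the lowest for neither chain (S100a8 at -0.16, S100a9 at 0.53).

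That test asked, for each probe set, whether its log2 signal differed from the median of its own arrays (limma, two-sided, n = 5, Benjamini-Hochberg over 12422 probe sets). The outcome places a probe set among the others of its array; it is no proof that a transcript is present or absent. With each gene read from its probe set of highest mean log2 signal, 7 of 8 S100 genes were above the median and 0 below, beside 45.4% of 8251 named genes above and 28.7% below. The median log2 level was 4.26 for the 8 genes and 0.38 for all named genes. By probe set, 9 of 15 were above and 5 below, beside 37.4% and 36.4% of all probe sets. The same 9 of 15 probe sets, which represent these 7 genes, were also above the 75th percentile of the arrays, beside 18.5% of all probe sets. The exception was S100a3.

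Sample 1 also differed in how far the calprotectin chains moved. In log2 units S100a8 was -2.08 and S100a9 -1.39 from its own 5-sample mean in sample 1, against 1.02 and 0.86 in sample 4. The low value of S100a9 in sample 1 depended on the scaling: after quantile normalization, which matches arrays by rank, it was -0.06 while S100a8 was at -1.53. In the values as deposited, S100a9 was at 0.53 in sample 1, its highest sample there, and S100a8 at -0.16. The S100a8 signal over the S100a9 signal, divided by the geometric mean of that ratio, was 0.618, 1.19, 1.08, 1.12 and 1.12 in samples 1 to 5. The ratio was therefore nearly constant over samples 2 to 5 and lower in sample 1. The SD of the log2 difference between the chains was 0.39 over all 5 samples and 0.058 without sample 1. Over all pairs of the 5814 probe sets whose mean was above the median, the median of that SD was 0.69 with sample 1 and 0.62 without it.

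The brightest probe sets of sample 1 were lower too. Of the 20 with the highest mean in the other 4 samples, S100a8 and S100a9 aside, 20 were lower in sample 1, by a median of -1.37 log2 units and a range from -4.21 to -0.54. S100a8 was at -2.60 and S100a9 at -1.73 on the same measure, and 2 and 6 of the 20 lay below them. In sample 4 the same 20-probe-set measure was 0.80, where S100a8 was at 1.28 and S100a9 at 1.07. By position in its array, S100a8 was the brightest of all probe sets in samples 2 to 5 and the 35th in sample 1, while S100a9 was the 4th to 6th in every sample. Before scaling, S100a8 had 36121.6 and S100a9 46087.7 in sample 1, where the highest value of the array was 50124.1. The column of sample 1 had a mean of 1001 after 2% was left out at each end, while the other columns had 200.1. As a measure of RNA quality, the actin control's signal at its 3′ end divided by that at its 5′ end was 1.08 in sample 1 and 2.55 to 5.20 in the others, that of Gapdh 0.896 against 1.06 to 4.52, and that of the transferrin receptor 3.14 against 3.77 to 16.7. The part of these differences in the low S100a8 and S100a9 values of sample 1 was not tested.

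Neutrophil granule genes gave a mixed picture beside calprotectin. Of the granule list, 14 of 15 genes were above the array median and 0 below, beside 45.4% and 28.7% of all named genes. The remaining gene was Mmp9, a gelatinase. Ngp, a granule protein of the cathelicidin family, had 7093, 32542, 27444, 54586 and 36458 in samples 1 to 5, and Chil3, a chitinase-like protein of myeloid cells, 12477, 40001, 27856, 60173 and 34075. Both were lowest in sample 1 and highest in sample 4, as the calprotectin chains were; they are named because their profiles were among the closest to these chains, so this likeness is no separate finding. Some other secondary granule genes were lowest in sample 2: lactoferrin, Ltf, had 2449 in sample 1 and 1609 in sample 2, the cathelicidin gene Camp 5534 and 2447, and lipocalin 2, Lcn2, 9589 and 8148. Mmp8, also of the granule list, was lowest in sample 1 at 3058, had 11236 in sample 2 and was highest in sample 4 at 19583.5. Itgb2l of the same list was lowest in sample 3 at 979. The elastase gene Elane had 10647, 2027, 2760.0, 6325 and 7356, and the cathepsin gene Ctsg 8592, 2678, 1643, 2396 and 2782, so these serine proteases of primary granules were highest in sample 1. Mpo, myeloperoxidase, had 7306, 3491, 4249, 8138 and 7239, and Prtn3, proteinase 3, 6429, 1822, 2022, 2348 and 4229.7. In these bulk samples, fewer cells of a type and less RNA per cell cannot be told apart. The part of neutrophil content in the calprotectin values was not tested.

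**Figure D2:**
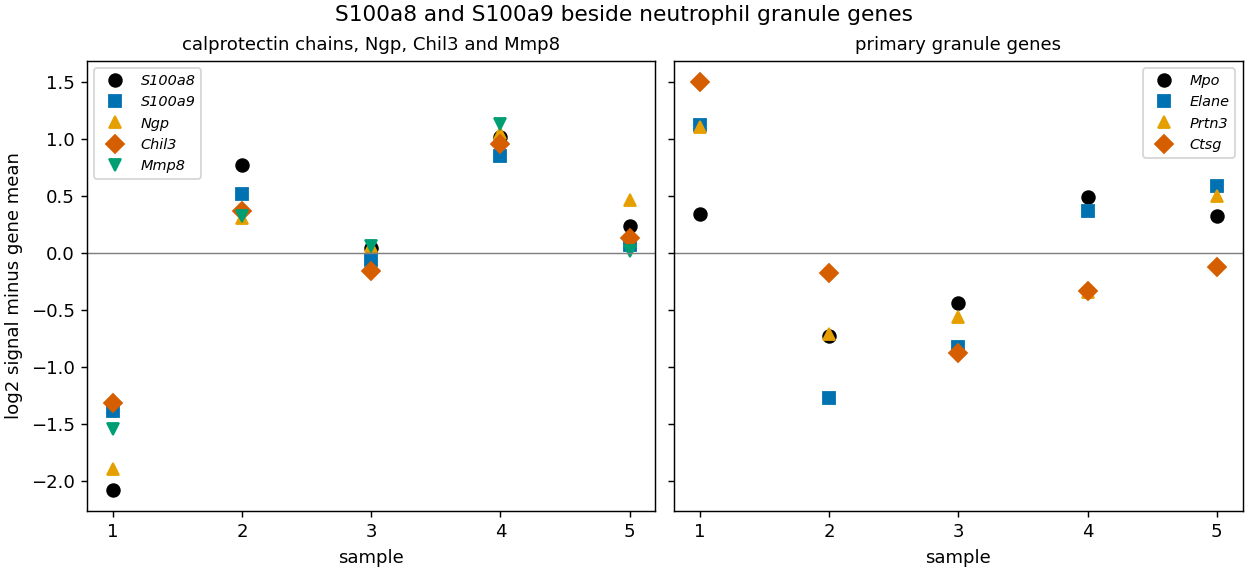
Log2 signal minus the gene's 5-sample mean, by sample, for S100a8, S100a9, Ngp, Chil3 and Mmp8 (left) and for 4 primary granule genes (right), each point 1 sample. S100a8 is at -2.08 and S100a9 at -1.39 in sample 1, where Elane, Prtn3 and Ctsg lie above their means. After quantile normalization S100a9 was at -0.06 in sample 1. In the deposited values S100a8 was at -0.16 there and S100a9 at 0.53.

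The probe sets whose deviations over the 5 samples were closest to S100a9, among 5265 others with 1 gene symbol, were those of Rps24, a ribosomal protein, Chil3, Pdcd4, an inhibitor of translation, Mtf1, a zinc-responsive transcription factor, and Satb1, a chromatin organiser. The root mean square differences ran from 0.089 to 0.15 log2 units. Those closest to S100a8 were Zscan26, Rps28, Ngp, Azi2 and Eef1a1, at 0.13 to 0.28. Here S100a9 came 23rd in closeness to S100a8, at 0.35, and S100a8 139th in closeness to S100a9. Rps28, a ribosomal protein gene, had signals of 8289.9, 48978, 29032, 57261 and 31101 in samples 1 to 5, so it too was lowest in sample 1. Rps28 was picked for its closeness to S100a8, so this likeness is no separate finding.

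Receptors and regulators of calprotectin had signal in part. Of the receptor and signalling list, 5 of 7 measured genes were above the median and 1 below, beside 45.4% and 28.7% of all named genes. Cd14, a co-receptor of TLR4, was above it at 559 ± 151 (SD, n = 5), the adaptor gene Myd88 at 414 ± 104 and the kinase gene Irak1 at 554 ± 168. Ager, which encodes the receptor RAGE, had 326, 72.1, 39.7, 187 and 69.4 in samples 1 to 5 and did not pass the test (limma adjusted p = 0.991). Its highest value was in sample 1, where S100a8 and S100a9 were lowest with arrays scaled to a common median. That low place depended on the scaling, as given above, and a relation of Ager to calprotectin was not tested. Cd36, a scavenger receptor, was the gene below the median, at 31.8 ± 11.8. Beside the same shares of all named genes, 9 of 10 transcription factors known to act on S100a8 and S100a9 were above the median and 0 below. They included Cebpa at 1684 ± 486, Cebpb at 2215 ± 973, Cebpd at 1136 ± 332 and Spi1, which encodes PU.1, at 910.5 ± 386. Cebpb had 3615, 1084, 2318, 1546 and 2509, with its highest value in sample 1 and its lowest in sample 2. The remaining gene, Atf3, had a limma adjusted p of 0.0590.

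S100a6 and S100a10 were above the array median. Over all 5 samples, scaled to a common median, they had less spread than S100a8. Without sample 1 the SD of log2 signal was 0.25 for S100a6, 0.50 for S100a10 and 0.45 for S100a8. In the values as deposited it was 0.94, 1.21 and 0.32 in the same order. S100a6, or calcyclin, a cytosolic protein of dividing cells, had 7753, 10592, 9242, 11619.8 and 7754 in samples 1 to 5. Samples 1 and 5 were lowest and alike, and sample 4 was highest, but this order changed after quantile normalization, where sample 3 was highest at 0.19 log2 units from the gene's mean, sample 1 was at 0.07 and sample 4 at -0.02. Its log2 level above the median was 6.49 (standard error 0.118, limma adjusted p = 5.96e-07). S100a10, the p11 chain that binds annexin A2 and has lost calcium binding, had 2181, 2588, 1571, 2532 and 1305.5 by its probe set 92539_at. Samples 2 and 4 were high and samples 3 and 5 low. The log2 level was 4.25 (standard error 0.182, limma adjusted p = 1.84e-05).

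S100a4, a binding partner of non-muscle myosin found in motile cells and macrophages, varied more. Its signals were 1956, 3845, 1625, 2605 and 990.1 in samples 1 to 5. Sample 2 was highest, sample 5 lowest, and the ratio between them 3.88. The log2 level above the median was 4.27 (standard error 0.298, limma adjusted p = 0.000116). The probe sets closest to it in deviation were those of Il13ra1, C1qb, Hhex, Necap1 and Casp2, at 0.13 to 0.16 log2 units. C1qb, a complement chain of macrophages, had 293, 601, 255, 492 and 144, so it was highest in sample 2 and lowest in sample 5 as well. C1qb was picked for its closeness to S100a4, so this likeness is no separate finding. These neighbours and those given for S100a10 next fall outside the rule for named genes and were chosen after values were seen. Closest to S100a10 were Nckap1l, Gtf2b and then Cebpa, at 0.083 for the last.

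The partner proteins of the S100 family had 8 of 11 measured genes above the median and 2, Fgf1 and Il1a, below. Of all named genes, 45.4% were above and 28.7% below. Anxa1 and Anxa2, annexins bound by S100A11 and S100A10, were at 15790 ± 7109 and 7015 ± 2169 (SD, n = 5). Anxa2 had 6535, 10485.5, 5218, 7560.4 and 5276 in samples 1 to 5, with sample 2 high and samples 3 and 5 low, as for S100a10. Anxa6 was at 358 ± 121, and Ahnak, a scaffold of the S100A10 and annexin A2 complex, at 3695 ± 3126. Ahnak had 1067, 8292, 2513, 5462 and 1139, with an SD of log2 signal of 1.32 against 0.44 for S100a10. Of the other EF-hand proteins, 14 of 19 were above the median and 2, Sdf4 and Aif1, below, beside the same shares of all named genes. The calmodulin gene Calm2 did not pass (limma adjusted p = 0.707), while Cib1 at 283 ± 45.4, Sri, or sorcin, at 1219 ± 333 and Pdcd6, or ALG-2, at 909 ± 205 were above.

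**Figure D3:**
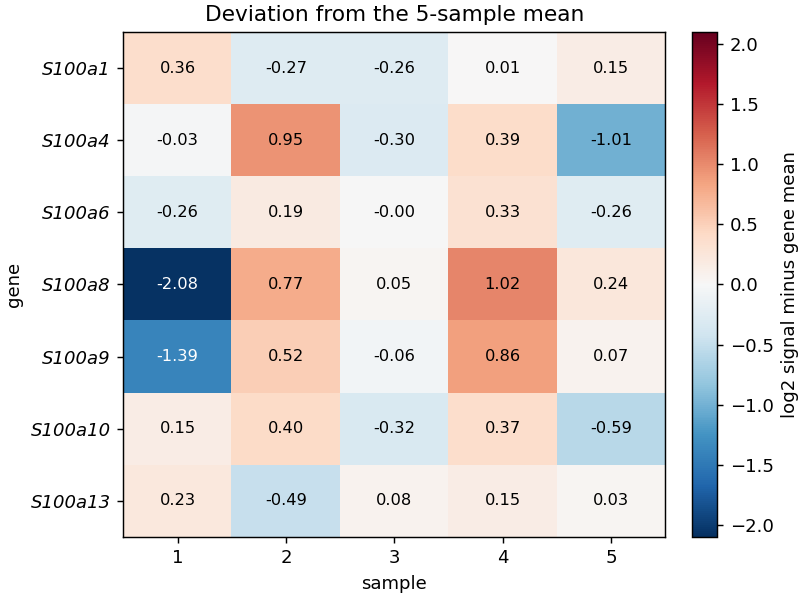
Log2 signal minus each gene's 5-sample mean for 7 S100 genes (rows) in 5 samples (columns), red above and blue below the mean. S100a8 and S100a9 are at -2.08 and -1.39 in sample 1, and S100a4 at 0.95 in sample 2 and -1.01 in sample 5. After quantile normalization S100a9 was at -0.06 in sample 1. In the deposited values S100a8 was at -0.16 there and S100a9 at 0.53.

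By the probe sets 100959_at and 95453_f_at, S100a13 and S100a1 varied little between samples (SD of log2 signal 0.28 and 0.27). For S100a13 that SD was 0.53 by 161121_f_at and 0.45 by 100960_g_at. S100a13, which takes part in the release of FGF1 from cells, had 1735, 1055, 1567, 1647 and 1517 in samples 1 to 5 by its probe set 100959_at. Sample 2 was lowest and the other 4 were close together. The log2 level was 3.84 (standard error 0.124, limma adjusted p = 6.57e-06). S100a1, best known as a regulator of calcium handling in muscle, had 835, 540.4, 541, 654 and 723 by its probe set 95453_f_at. Sample 1 was highest, and samples 2 and 3 were lowest and alike. The log2 level was 2.65 (standard error 0.119, limma adjusted p = 2.20e-05).

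By the probe sets 95453_f_at and 100959_at, the ratio of S100a1 to S100a13 varied least of the 21 pairs among 7 S100 genes. S100a1 and S100a13 are read in opposite directions from neighbouring starts. The SD of their log2 difference was 0.24, and 2.55% of all probe set pairs had a smaller one. It ran from 0.16 to 0.26 when each sample was left out. Without sample 1 the pair came 5th, with S100a8 and S100a9 first, and without sample 2 it came 2nd at 0.23, after S100a4 and S100a10 at 0.21. Next over all 5 samples were S100a6 and S100a10 at 0.32, S100a4 and S100a10 at 0.36 and S100a8 and S100a9 at 0.39. The median over the 21 pairs was 0.88, above the 0.69 of all probe set pairs, and 10 of the 21 were below 0.69. The 8 widest pairs over all 5 samples had S100a8 or S100a9 on 1 side, up to 1.43 for S100a1 and S100a8. This did not hold without sample 1, where S100a4 and S100a13 were widest at 1.05, then S100a1 and S100a4 at 0.99. There S100a8 and S100a10 came 2nd from the smallest at 0.22, and S100a9 and S100a10 came 3rd at 0.24. Without sample 1 the median over the 21 pairs was 0.45, against 0.62 for all probe set pairs. Small SDs come more easily to probe sets that vary little, and no test was made of any pair. The small SD of S100a1 and S100a13 holds for the probe sets 95453_f_at and 100959_at only. In sample 1 these were at 0.36 and 0.23 log2 units from their means, but 161121_f_at of S100a13 was at -0.86. The other probe sets of S100a1 were below the array median. The ratio by other probe sets of these genes was not tested.

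**Figure D4:**
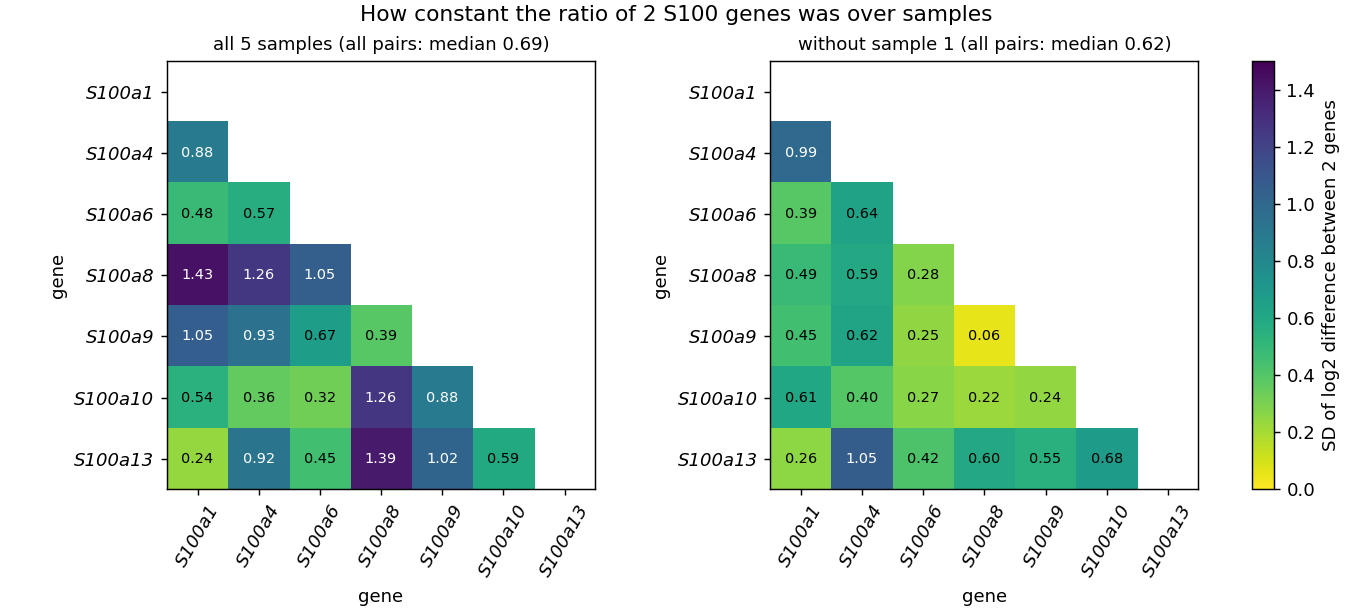
SD over samples of the log2 difference between 2 S100 genes, for 21 pairs, over all 5 samples (left) and without sample 1 (right); a small value means a nearly constant ratio. S100a1 and S100a13, by 95453_f_at and 100959_at, are at 0.24 on the left, and S100a8 and S100a9 go from 0.39 to 0.058.

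No S100 gene passed the test for a spread between samples larger than that of probe sets of like signal. In limma's test of variance against a trend on mean signal, 0 of 5814 probe sets passed after adjustment and 4.99% had an unadjusted p under 0.05. Of the S100 genes 7 of 8 were tested, S100a3 being under the filter on mean signal. The SD of log2 signal was 1.23 for S100a8 against 0.59 for the trend (unadjusted p = 0.0426, limma adjusted p = 0.925), 0.86 for S100a9 (adjusted p = 0.943) and 0.73 for S100a4 (adjusted p = 0.943) by limma. It was 0.44 for S100a10, 0.28 for S100a13, 0.27 for S100a1 and 0.26 for S100a6, each with a limma adjusted p of 0.995. Among 5814 simulated probe sets, 26 of 200 with a 4 times larger SD were called and 163 of 200 with an 8 times larger one, so smaller differences in spread could be missed.

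S100a3, a protein known from the hair cuticle, was the 1 gene without a call. Its probe set 101051_at had 144, 98.2, 65.6, 34.4 and 16.8 in samples 1 to 5. It exceeded the array median in sample 1 only, and in sample 5 it was under the floor. The log2 level was -0.72 (standard error 0.397, limma adjusted p = 0.154). The other probe set, 101052_g_at, was below the median in every sample, at 27.1 ± 18.1 (SD, n = 5, limma adjusted p = 0.000531), and its highest value, 56.2, was in sample 3.

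Other probe sets of the same gene did not always follow the ones quoted. For S100a1, 95454_at at 32.8 ± 26.3 (limma adjusted p = 0.00384) and 95452_i_at at 18.0 ± 17.0 (limma adjusted p = 0.000115) were below the array median, opposite to 95453_f_at. The call of S100a1 above the median therefore rests on 1 of 3 probe sets, and its suffix marks probes that can match related sequences. For S100a10, 162340_r_at was below the median at 56.8 ± 21.3 (limma adjusted p = 0.0173), a call that was lost with no floor (limma adjusted p = 0.0595) and without sample 1 (limma adjusted p = 0.0638). It had its highest value in sample 2 and its lowest in sample 5, as for 92539_at. For S100a13, 3 of 4 probe sets were above the median. Of these, 161121_f_at had 383, 765, 661, 1003 and 841 in samples 1 to 5, so that sample 1 was its lowest, while in 100959_at it was the highest. The SD of the log2 difference was 0.67 between these probe sets and 0.36 between 100959_at and 100960_g_at.

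**Figure D5:**
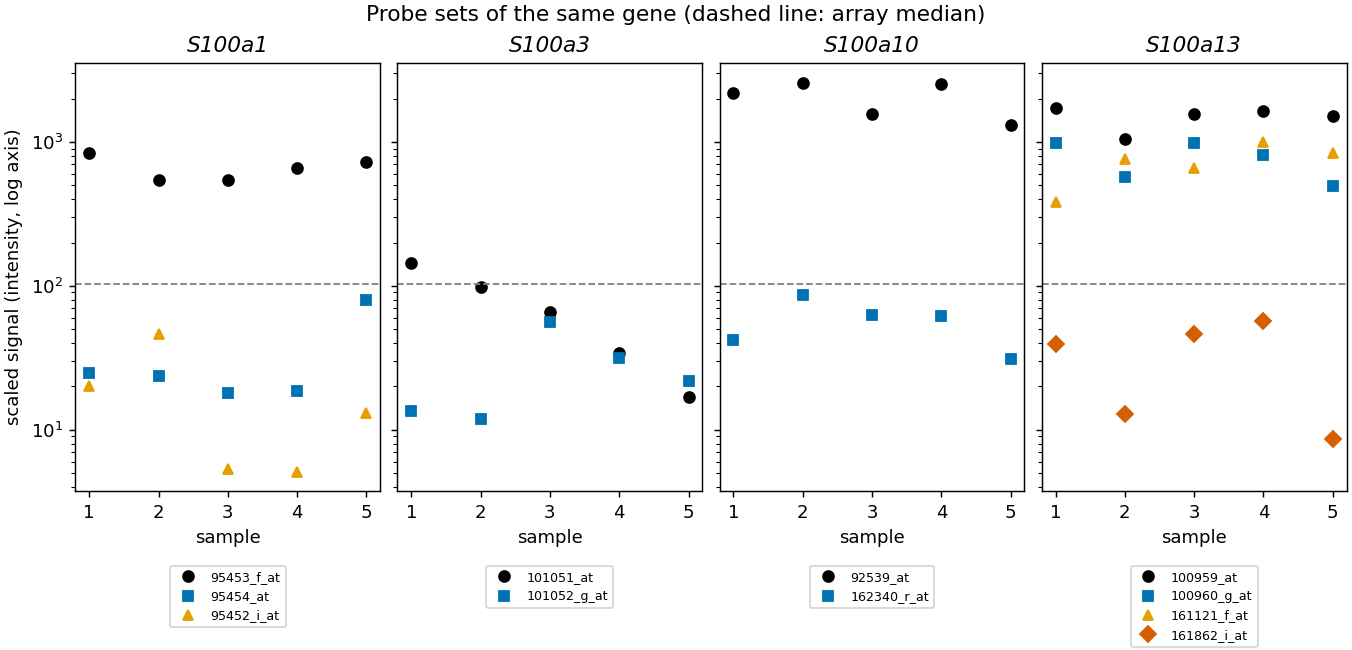
Scaled signal (log axis) by sample for every probe set of the 4 genes with several, each point 1 sample, with the array median dashed. S100a1 has 1 probe set above the median and 2 below, and S100a13 has 3 above and 1 below.

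Of the 6 other genes of the family list that were measured, 1 was above the array median and 3 below, beside 45.4% and 28.7% of all named genes. S100a14, an epithelial member, was above by its probe set 162428_i_at, with 247, 362, 217, 382 and 211 in samples 1 to 5 (limma adjusted p = 0.00106), but not by 104594_at at 90.5 ± 34.9 (limma adjusted p = 0.369). S100b, known from glia, at 37.4 ± 33.5, S100g, an intestinal calcium carrier, at 56.1 ± 24.3 and S100a16 at 6.58 ± 2.86 were below. S100a5 at 78.4 ± 31.6 (limma adjusted p = 0.135) and S100pbp, which encodes a protein that binds S100 proteins, at 75.9 ± 49.5 (limma adjusted p = 0.211) did not pass.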

How the data were processed

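The authors deposited 1 intensity value per probe set and sample on a linear scale; per the labels, RNA preparation, labelling and hybridization followed an earlier publication. No array software is named in the labels. The 66 control probe sets were left out, each array was multiplied to a common median of 103.4, values were floored at the 25th percentile (30.0), and log2 was taken. Genes were named from the platform annotation, of whose probe sets 10833 had 1 symbol, 396 several and 1193 none. Level and spread were tested with limma 3.58.1 in R 4.3.3 (trend and robust prior, adjusted p threshold 0.05). On simulated data the level test called 117 of 200 probe sets shifted by 1 log2 unit and 199 of 200 shifted by 2. All other simulated probe sets lay at the median, whereas in the data 37.4% were called above it and 36.4% below. The adjustment for many tests depends on these shares, so the recovery in the data can differ. Lists are described by counts only. No depth exists for arrays; their number limits the precision. Members, gene lists and tests were chosen with earlier results of these data known. Genes named were all members and measured family members, the first 4 measured genes of each list, the 5 closest to S100a8 and S100a9, and genes of the lists in which Dixon's test found an outlying sample; further genes were chosen after their values were seen. Alternatives were the deposited values, quantile normalization, no floor with 1 added, a floor at the 40th percentile, a reference at the 75th percentile, other limma priors, no filter, each probe set on its own and leaving out each sample.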

Additional observations from a re-analysis of the deposited data

Results flagged for a closer look

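Of 124 probe sets of S100 and list genes, 15 had 1 sample outlying from the other 4 by Dixon's test at 95%, which chance gives in about 1 of 20 groups. For S100 genes these were 95454_at of S100a1 with 79.5 in sample 5, 95452_i_at of S100a1 with 46.2 in sample 2, 101052_g_at of S100a3 with 56.2 in sample 3, and 100959_at of S100a13 with 1055 in sample 2, where the median of the others was 1607. In 7 of the 15, both S100a1 probe sets included, the other 4 samples were all under the floor of 30.0. The test used floored values, so there any value above the floor is flagged. The rate of 1 in 20 does not hold for these 7. It does not hold either for 101052_g_at of S100a3, with 3 of the other samples under the floor. The same goes for H2-Ab1 and Epor, with 2 each. Among partner and EF-hand genes, Cacybp had 119 in sample 2, Calu 295 in sample 2 and Aif1 32.4 in sample 1. The transcription factor gene Klf5 had 643 in sample 5. Among markers of cell types, H2-Ab1 had 53.3 and Cd3e 39.0 in sample 1, Cd8a 106 and Cdh5 83.0 in sample 3, and Gata1 12.3, Epor 84.6 and Sparc 46.5 in sample 5.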

How the results depend on the processing

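The 7 S100 genes above the array median and the 9 probe sets above it had the same counts under every alternative run for them, and 0 S100 genes passed the spread test under any. With the 75th percentile as reference, 1 S100 gene, S100a3, was below it, against 0. The genes above it were 0 of 6 of the other S100 list, 3 of 7 of the receptor list, 5 of 11 of the partner list and 9 of 19 of the EF-hand list. Klf5 of the transcription factor list was not called above it (limma adjusted p = 0.433). Of all probe sets, 18.5% were above the 75th percentile, a share of probe sets and not of genes. The SD of the log2 difference of S100a8 and S100a9 was 0.82 after quantile normalization, against 0.39, and ran from 0.058 (without sample 1) to 0.45 when each sample was left out. The median SD over the 21 pairs ran from 0.45 (without sample 1) to 1.01. The call of 162340_r_at of S100a10 below the median was lost with no floor (limma adjusted p = 0.0595) and without sample 1 (limma adjusted p = 0.0638). After quantile normalization the deviation of S100a9 in sample 1 was -0.06 and that of S100a6 0.07, with S100a6 at -0.02 in sample 4; the cause was not tested. In the values as deposited, which keep the higher scale of sample 1, the deviation there was -0.16 for S100a8 and 0.53 for S100a9. No paired analysis was possible because there is 1 group. With 5 arrays and no second group, the data cannot show whether a difference between samples is biological or technical.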
